A study of Mus musculus with 3 samples.

Results

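The genes described here encode β-catenin, its close relative plakoglobin and other proteins of cell-cell junctions. They were taken by symbol from the probe sets of 3 mouse thymocyte arrays: Ctnnb1, Jup, Ctnna1, Ctnnd1, Pkp2, Pkp3, Pkp4, Dsp, Cdh1 and Afdn, 10 of 19938 named genes. Each had 1 probe set with its symbol alone, and 0 probe sets shared by several genes carried any of these symbols. Thymocytes are T cells developing in the thymus. They came from a wild type mouse aged 12 weeks (WT), a β-catenin transgenic mouse aged 16 weeks and a TCF-1-deficient (TCF-1-/-) mouse aged 8 weeks, with 1 array each. Genotype and age therefore cannot be told apart. For the transgenic mouse neither can sex, as read from transcripts given below. The promoter of the transgene, the strain and any pooling of mice were not given by the labels. No sort or gate is mentioned, so whether the thymocytes were sorted is not known. Values are deposited log2 values. A difference is 1 array minus another on that scale, and the words higher and lower call a gene past 2-fold, a difference of 1, unless a smaller value is given. The median gene level, 6.90, is the median over genes of the mean of the 3 arrays, and values under it are treated as dim. With 1 array per genotype there is no replicate error and no test.

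β-catenin works in 2 places in a cell. At adherens junctions it binds the tail of a cadherin, such as E-cadherin, and through α-catenin ties it to actin; plakoglobin can take its place there and also sits in desmosomes, with plakophilins and desmoplakin. Free β-catenin is degraded unless Wnt signals spare it, and in the nucleus it is a coactivator for TCF and LEF factors, the family of TCF-1. Desmosomes are structures of epithelia and heart rather than of lymphocytes. Thymocytes depend on Wnt and Notch signals and on adhesion to thymic epithelium as they pass from CD4-CD8- double-negative to CD4+CD8+ double-positive cells.

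The promoters of the 3 genes with the largest differences are shown first, since TCF-1 is a DNA-binding factor. RefSeq windows of 300 bases in GRCm38.p6, 250 before and 50 after a transcript start, were at hand for 6 of the 10 genes, in 9 windows. Capitals mark matches on either strand to the GC box GGGCGG and the CCAAT box CCAAT.
Jup, chr11:100397741-100398040, minus strand: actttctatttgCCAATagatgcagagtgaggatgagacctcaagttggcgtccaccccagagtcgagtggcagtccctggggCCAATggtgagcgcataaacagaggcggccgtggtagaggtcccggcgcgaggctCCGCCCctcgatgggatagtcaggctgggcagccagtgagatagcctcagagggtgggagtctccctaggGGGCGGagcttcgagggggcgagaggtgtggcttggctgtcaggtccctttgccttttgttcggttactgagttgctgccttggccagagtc
Ctnnd1, upstream start, chr2:84658928-84659227, minus strand: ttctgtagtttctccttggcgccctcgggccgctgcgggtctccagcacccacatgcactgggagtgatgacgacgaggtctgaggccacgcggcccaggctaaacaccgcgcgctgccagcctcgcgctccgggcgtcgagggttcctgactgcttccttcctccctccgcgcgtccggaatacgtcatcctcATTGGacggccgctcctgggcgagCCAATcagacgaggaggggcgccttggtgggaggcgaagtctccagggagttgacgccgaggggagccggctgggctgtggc
Ctnnd1, downstream start, chr2:84650691-84650990, minus strand: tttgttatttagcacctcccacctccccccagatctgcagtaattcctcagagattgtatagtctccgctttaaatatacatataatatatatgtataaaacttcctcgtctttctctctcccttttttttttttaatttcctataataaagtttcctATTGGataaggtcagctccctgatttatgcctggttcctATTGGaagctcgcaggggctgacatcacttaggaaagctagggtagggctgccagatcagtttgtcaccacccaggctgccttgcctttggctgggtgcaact
Afdn, chr17:13760291-13760590, plus strand: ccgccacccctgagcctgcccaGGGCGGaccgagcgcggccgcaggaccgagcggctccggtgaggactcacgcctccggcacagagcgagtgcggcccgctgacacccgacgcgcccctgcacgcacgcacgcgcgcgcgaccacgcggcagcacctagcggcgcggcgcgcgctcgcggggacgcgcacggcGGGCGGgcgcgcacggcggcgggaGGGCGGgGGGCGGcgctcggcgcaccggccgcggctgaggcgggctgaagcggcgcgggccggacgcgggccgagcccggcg
The windows differed in base composition. That of Jup was 60.7% G or C with 14 CpG, that of Afdn 83.3% with 62 CpG, and those of Ctnnd1 67.7% with 30 CpG upstream and 42.7% with 3 CpG downstream. The median over all 32851 windows was 52.7% with 7 CpG. The Jup window held 2 GC boxes and 2 CCAAT boxes, the Afdn window 4 GC boxes and 0 CCAAT boxes, and each Ctnnd1 window 2 CCAAT boxes and 0 GC boxes. GC boxes were found in 35.7% and CCAAT boxes in 37.4% of all windows. Letters bound by TCF and LEF factors (CTTTG and then a pair of bases each A or T, either strand) were in 0 of the 9 windows and in 16.9% of all windows. For RUNX factors the letters TGTGGT were in 0 of the 9 and in 16.8% of all. TGGGAA, the core bound by the Notch partner RBPJ, matched once in the window of Dsp and once in the downstream window of Pkp4, and in 25.6% of all windows. The E-box CANNTG, which can share bases with the other motifs and is not capitalised, was in 72.3% of all windows. It was in 3 of the 9 windows, the upstream one of Ctnnd1 and 1 each of Dsp and Pkp4. Overlapping matches were counted separately. These counts describe the letters of short windows only. The shares over all windows were not matched for base composition, so 0 of 9 against 16.9% is no result about these genes. The windows of Ctnnb1 overlap each other, and Ctnna1, Cdh1, Pkp2 and Pkp3 had no window.

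Without TCF-1, the junction genes differed from wild type in opposite directions: plakoglobin was far lower, afadin and the δ-catenin gene Ctnnd1 far higher, and β-catenin itself near its wild type value. Of the 10 genes, 4 were past 2-fold, against 3.96% of all 19938 genes. These genes, and all gene lists below, were chosen with earlier results of these data known. A share above that of all genes is therefore no evidence of an excess, here or below. Jup and Ctnna1 were lower, a call made for 2.62% of all genes, and Ctnnd1 and Afdn were higher, a call made for 1.33%. The median size of the difference, whatever its sign, was 0.81 over the 10 genes and 0.08 over all genes. The latter is held down by the 36.4% of genes with equal values on these 2 arrays, against 1 of the 10. With genes under the median gene level on both arrays left out, 744 of 10322 genes were past 2-fold. So were 4 of the 8 that remain of the 10. This filter keeps a gene that reaches the level on either array. Ctnnd1, Afdn and Cdh1 stayed only through the TCF-1-deficient array, and Ctnna1 only through the wild type array. These counts therefore do not set aside differences that start from a dim value. Ctnna1 was just past the rule (-1.01) and Cdh1 just short of it (0.94). Centring every array on its own median, which adds 0.13 to every difference, put Ctnna1 at -0.88 and Cdh1 at 1.07, so the split changed from 2 higher and 2 lower to 3 higher and 1 lower. Over all genes centring changed it from 266 higher and 523 lower to 364 and 405.

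**Figure D1:**
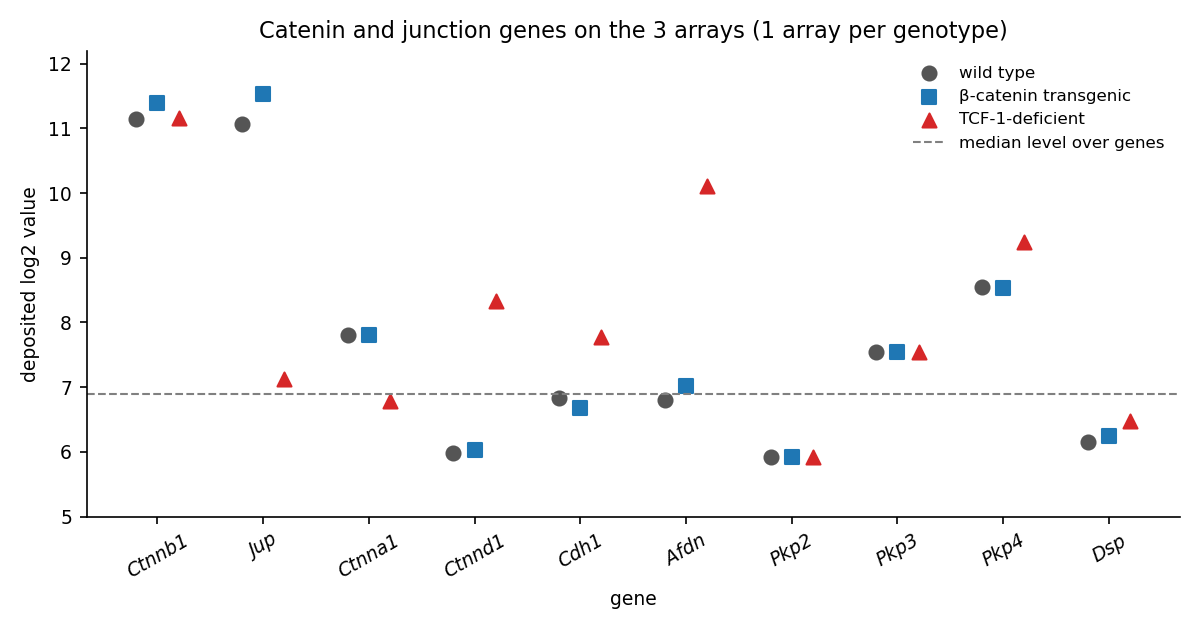
Deposited log2 values (vertical axis) of the 10 genes (horizontal axis) on the wild type, β-catenin transgenic and TCF-1-deficient arrays, 1 point per array, with the median gene level (6.90) dashed. The wild type and transgenic points lie close together for each gene, while the TCF-1-deficient point of Jup is far below them and those of Afdn and Ctnnd1 are far above.

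Jup encodes plakoglobin, the armadillo-repeat protein nearest to β-catenin. It was at 11.06 in the wild type, 11.54 in the transgenic and 7.12 in the TCF-1-deficient sample. The last value stood alone, close to the median gene level of 6.90, while the others were far above it. The difference of -3.94 was a 15.3-fold lower level and the number 2 in rank among the lowest of all 19938 genes. Ctnnb1, β-catenin itself, was at 11.15, 11.39 and 11.16 on the same arrays. Its range over the 3 arrays was 0.24, against 4.41 for Jup. The 2 genes whose proteins can replace each other at cadherin tails thus had unlike values on the TCF-1-deficient array.

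The catenins that bind other parts of the cadherin complex also differed from wild type. Ctnna1, α-catenin, which links β-catenin and plakoglobin to actin, was at 7.80 in the wild type, 7.81 in the transgenic and 6.79 in the TCF-1-deficient sample. It was 2.02-fold lower without TCF-1, and its value there fell under the median gene level, which makes its fold uncertain in size. Ctnnd1, the catenin that binds the cadherin tail near the membrane and slows its removal, went the other way. Its values were 5.99 for wild type, 6.03 for the transgenic and 8.33 for TCF-1-deficient, a difference of 2.34 or 5.06-fold. It ranked number 45 among the highest of all genes. Both lower values were under the median gene level, so this fold too is uncertain in size.

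Cdh1, E-cadherin, a homophilic adhesion receptor of epithelia, was at 6.83 in the wild type, 6.67 in the transgenic and 7.77 in the TCF-1-deficient sample. The TCF-1-deficient value was the only one of the 3 above the median gene level, and it was 1.92-fold higher than wild type. Afdn encodes afadin, the scaffold that joins nectin receptors to actin and to the cadherin complex. It was at 6.80, 7.01 and 10.11 on the wild type, transgenic and TCF-1-deficient arrays. Its difference of 3.31, or 9.90-fold, ranked number 11 among the highest of all genes. The wild type value was just under the median gene level, so the size of this fold and its rank are uncertain.

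The plakophilin and desmoplakin genes differed by less than 2-fold. Pkp4, a plakophilin-like protein of junctions and of the dividing cell's midbody, was at 8.55 in the wild type, 8.54 in the transgenic and 9.24 in the TCF-1-deficient sample. It was 1.61-fold higher without TCF-1, short of 2-fold. Dsp, desmoplakin, which anchors desmosomes to keratin filaments, was at 6.16, 6.24 and 6.48 in the same order, under the median gene level on every array. Pkp3, a plakophilin of epithelial desmosomes, was at 7.54, 7.55 and 7.55. Pkp2, a plakophilin known from heart muscle, had the value 5.92 on all 3 arrays. Equal values to the last digit occur for 28.8% of the 35556 probe sets, so an exact 0 is not a measured equality of that precision. At 1.5-fold, 6 of the 10 genes were called, with Pkp4 and Cdh1 added to the higher genes, against 10.9% of all genes. Those past 3-fold were Jup, Ctnnd1 and Afdn, 3 of 10 against 1.41% of all genes.

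**Figure D2:**
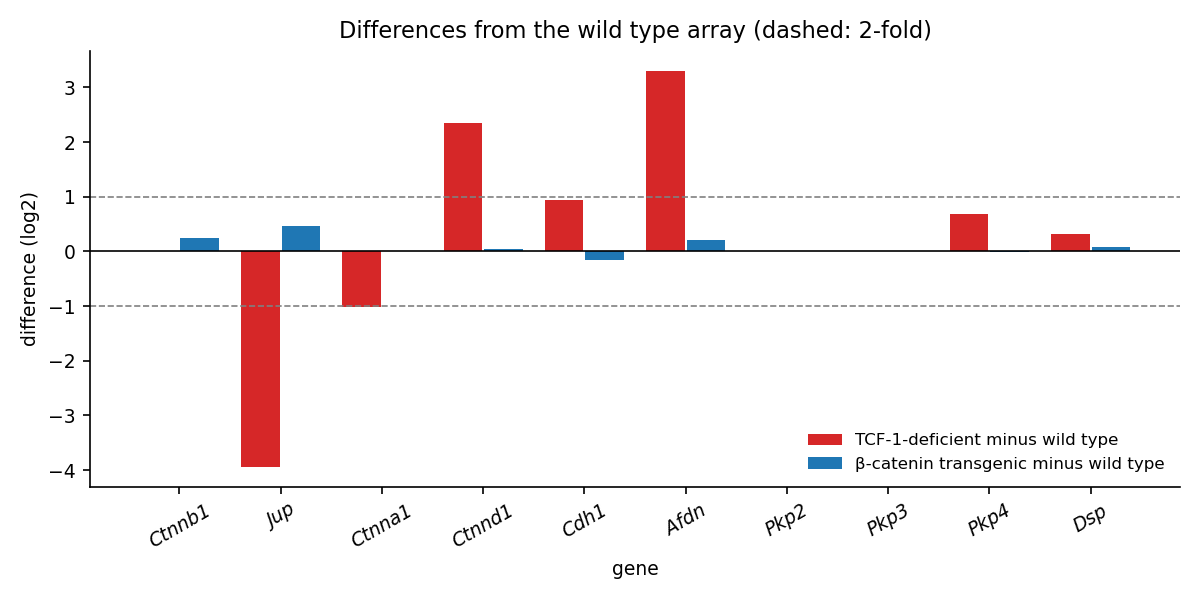
Differences from the wild type array in log2 units (vertical axis) for the 10 genes (horizontal axis), with bars for the TCF-1-deficient and the transgenic array starting at 0 and dashed lines at 2-fold. The bars of Jup (-3.94), Ctnnd1 (2.34) and Afdn (3.31) pass 2-fold by a wide margin without TCF-1, and the transgenic bars all stay within it.

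On the transgenic array 0 of the 10 genes were past 2-fold or 1.5-fold of wild type, where 0.246% and 1.15% of all genes were. Jup had the largest difference of the 10, 0.47 higher or 1.39-fold, and 2.1% of all genes differed by at least as much in either direction. Ctnnb1 was 0.24 higher, or 1.18-fold, a size reached by 8.53% of genes. No source states whether its probes match the transcript of the transgene. Afdn was 0.21 higher and Cdh1 0.16 lower, and the other 6 genes lay within 0.08 of wild type. Centring the arrays adds 0.08 to each difference and gave 0.55 for Jup and 0.32 for Ctnnb1. Jup was thus higher than wild type with the transgene and lower without TCF-1, and both differences use the same wild type array. The transgenic mouse also differed in sex-linked transcripts: Xist, the RNA of the inactive X chromosome, was at 4.86 there against 12.49 on the wild type and 12.17 on the TCF-1-deficient array. None of the 10 genes lies on a sex chromosome. The part of sex, or of age, in the values above cannot be told apart from genotype.

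**Figure D3:**
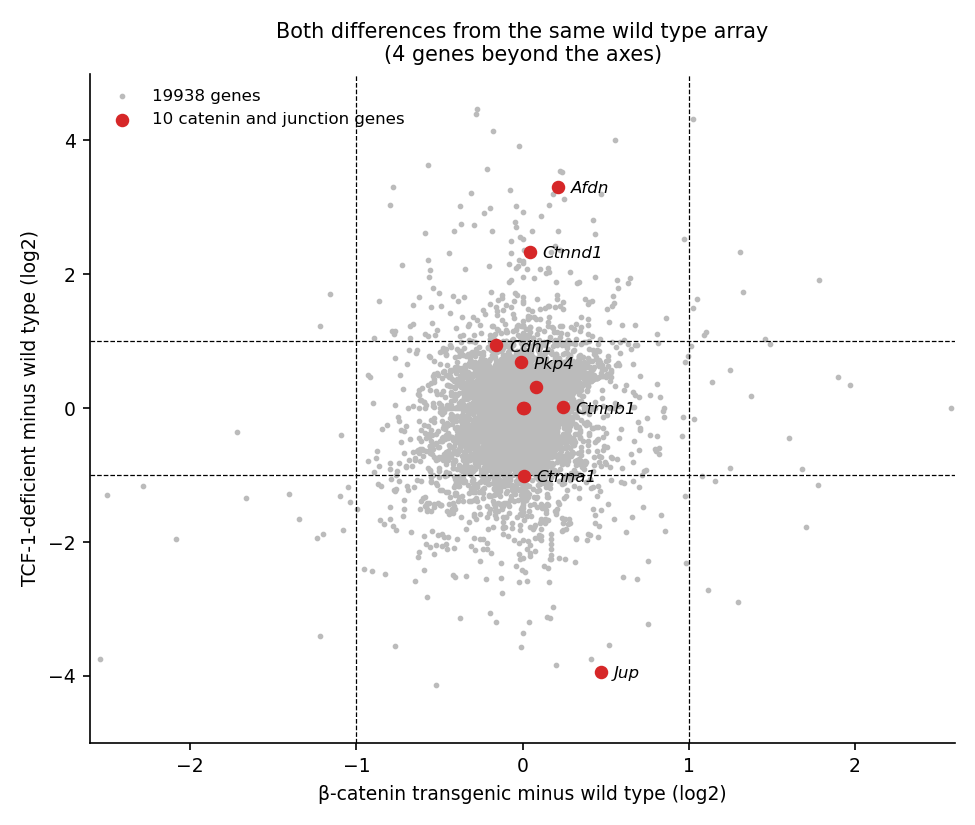
Difference of the transgenic from the wild type array (horizontal axis, log2) against that of the TCF-1-deficient from the wild type array (vertical axis, log2) for 19938 genes in grey and the 10 catenin and junction genes in red, with dashed lines at 2-fold and 4 genes beyond the axes. The 10 genes spread along the vertical axis from -3.94 to 3.31 and stay between -0.16 and 0.47 on the horizontal axis; the axes share the wild type array, so no relation is read between them.

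Set directly against each other, the transgenic and TCF-1-deficient arrays differed past 2-fold in 5 of the 10 genes, against 4.02% of all genes. Jup was 4.41 higher on the transgenic array, or 21.3-fold, and Ctnna1 was 1.02 higher. Afdn was lower there by a difference of -3.09, Ctnnd1 by -2.29 and Cdh1 by -1.09. This comparison shares its arrays with those above and adds no independent support. Centring left Ctnna1 at 0.97, so that 4 of the 10 were past 2-fold.

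The genes most like each of the 4 called genes were sought among 9488 genes at or above the median mean level, by Euclidean distance over the differences of the transgenic and the TCF-1-deficient array from wild type, which rests on 3 arrays. Nearest to Jup were Cd4, the co-receptor of double-positive and helper T cells (distance 0.21), Anxa2, an annexin (0.29), F13a1, a chain of coagulation factor XIII (0.40), Slc7a11, the cystine-glutamate exchanger (0.61), and Sgk3, a kinase (0.75). Cd4 was at 12.87, 13.29 and 9.13 on the wild type, transgenic and TCF-1-deficient arrays. Nearest to Afdn were Heyl, a repressor induced by Notch (0.12), Lmcd1 (0.19), Uaca (0.22), Cenpv (0.28) and Cd163l1, a scavenger receptor known from γδ T cells (0.28). Heyl was at 6.76, 6.95 and 9.96. Nearest to Ctnnd1 were Cym (0.03), Rapgef2, an exchange factor for the GTPase Rap1 (0.04), Apobec2 (0.13), Arfgef3 (0.14) and Parm1 (0.17). Nearest to Ctnna1, whose difference is close to that of many genes, were Pcmtd1, Pld3, Prex1, Tmem65 and Celf2, all within 0.04. Lmcd1, Uaca, Cym, Apobec2 and Parm1 were under the median gene level on the wild type and transgenic arrays, and Heyl in the wild type. F13a1 and Sgk3 were under it without TCF-1. The differences of these genes, and so their distances, are uncertain in size.

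Other genes of the junctions were taken from 7 lists of catenins, cadherins, desmosomal, nectin and afadin, actin-linking, junction-modifying and tight junction genes. Without the 10 genes above, 116 of 124 listed genes were measured. Of the 116, 4 were higher and 4 lower without TCF-1, which is 6.9% against 3.96% of all genes, with a median difference of 0 in both sets. Among 8 other catenin relatives 0 were past 2-fold. Ctnnd2, the neuronal relative of Ctnnd1, was 0.99 higher and Arvcf, another of that subfamily, 0.83 higher. Of 22 other cadherins, Cdh23, a large cadherin of hair-cell links, was higher by 1.24 and Cdh24, a cadherin that binds catenins, was lower (-1.33). Cdh23 was at 6.20 in the wild type, under the median gene level, so its fold is uncertain in size. Of the 23 cadherins with Cdh1, 19 did not reach the median gene level on any array. Among 12 other desmosomal genes 0 were past 2-fold, and Evpl, envoplakin, had the largest difference (0.41).

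The nectin and afadin list held differences on both sides. Of its 21 measured genes other than Afdn, Rapgef2 was at 9.43, 9.43 and 11.79 on the wild type, transgenic and TCF-1-deficient arrays. It was higher by 2.36 without TCF-1. Pvr, a nectin-like receptor, was at 10.66, 11.04 and 8.68, lower by a difference of -1.97. Cd226, the lymphocyte receptor that binds Pvr, was at 8.02, 8.43 and 6.13, a difference of -1.89. Receptor and ligand were both lower without TCF-1. The TCF-1-deficient value of Cd226 was under the median gene level, so its fold is uncertain in size. Cd96, another receptor for Pvr, differed by -0.95. The nectin genes stayed under the median gene level in the wild type and transgenic samples, and Nectin1, which had the largest difference among them (0.64), was just above it without TCF-1 at 6.96. Of 19 actin-linking genes other than Ctnnd1, Evl, which promotes actin filament growth, was higher by 1.05. Of 18 junction-modifying genes, the 1 past 2-fold without TCF-1 was Ptpn14, a phosphatase of junctional proteins. Ptpn14 was at 9.20 in the wild type, 10.99 in the transgenic and 11.12 in the TCF-1-deficient sample. It was the 1 gene of the 116 past 2-fold on the transgenic array, which is 0.862% of them. Of 18 tight junction genes, Cldn4, a claudin, was lower without TCF-1 (-1.44).

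Of 40 measured genes that act on or with β-catenin outside junctions, 2 were past 2-fold without TCF-1, which is 5% and near the 3.96% of all genes. Of 19 genes of the complex that marks β-catenin for degradation, 0 were past 2-fold on the TCF-1-deficient array, with a median of -0.09. At 1.5-fold 4 were lower and 1 higher. Siah1a, a ubiquitin ligase that can target β-catenin, had the largest difference (-0.998). Axin2, a scaffold of that complex induced by Wnt signals, was 0.99 higher, and Gsk3b, the kinase that phosphorylates β-catenin, differed by -0.94. Csnk1e, a casein kinase, differed by -0.70 and Apc, the other scaffold, by -0.62. Of 21 nuclear partners, Sox13, a factor of γδ T cells that binds TCF-1, was higher by 1.95 and Tle5, a short co-repressor of the Groucho family, was lower (-1.22). Their median was -0.18, and at 1.5-fold 4 were lower and 1 higher. Next in size were the acetyltransferase genes Ep300 (-0.98) and Crebbp (-0.62) and the co-repressor Tle4 (-0.72). Lef1, the TCF relative active in thymocytes, differed by 0.54, short of 1.5-fold. On the transgenic array 0 genes of either list were past 2-fold. Of 5 receptors that meet cadherins, Itgae, the integrin chain that binds E-cadherin, was at 7.67, 7.04 and 9.33 on the wild type, transgenic and TCF-1-deficient arrays. It was higher by 1.66 without TCF-1, where its ligand's gene Cdh1 was 0.94 higher. Itgb7, the chain that Itgae pairs with to bind E-cadherin, was at 7.86, 7.46 and 7.87, a difference of 0.01 without TCF-1.

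**Figure D4:**
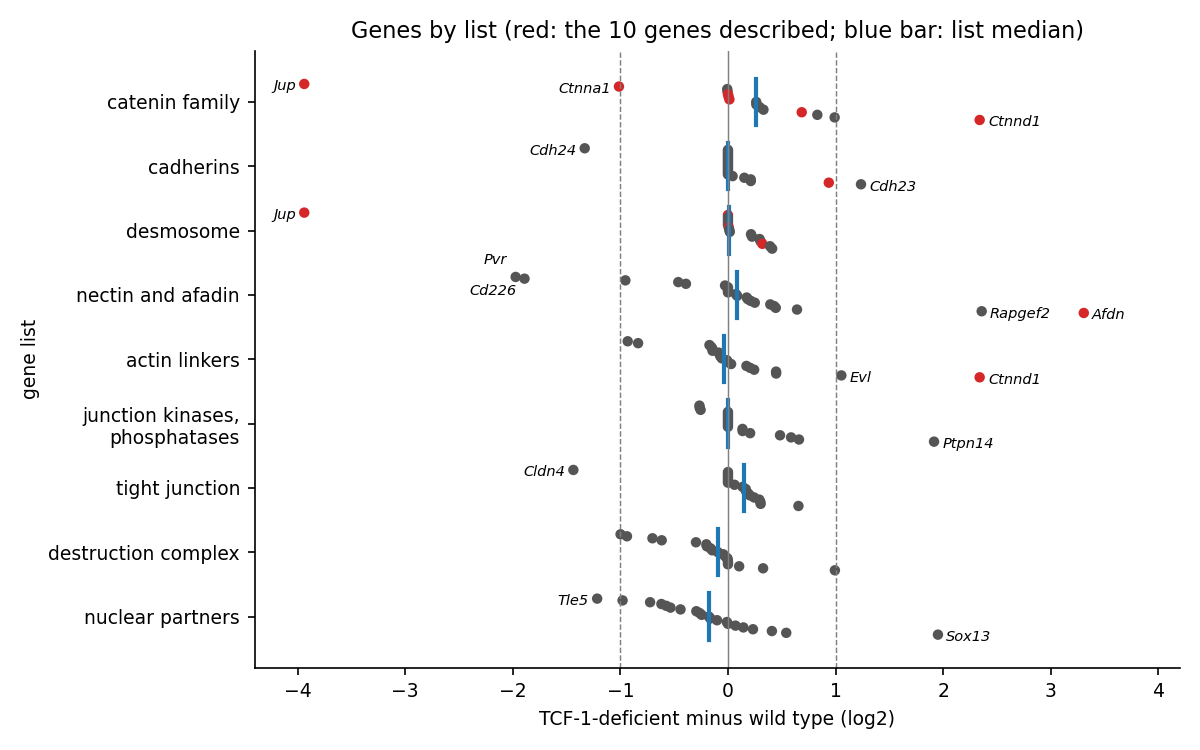
Differences of the TCF-1-deficient from the wild type array (horizontal axis, log2) for each measured gene of 9 lists (vertical axis), with the 10 genes described in red, list medians as blue bars and dashed lines at 2-fold. The medians lie between -0.18 and 0.26, and single genes such as Jup, Afdn, Rapgef2 and Pvr lie far from them.

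Markers of cell types differed between the same arrays. In such samples, fewer cells of a type cannot be told apart from less RNA per cell. Of 11 measured genes of a list drawn up for double-positive cells, 6 were lower and 1 higher without TCF-1, with a median of -1.44. The 6 were Cd4 (-3.74), Cd8b1 (-2.10), Rag1 (-1.95), Ccr9 (-1.81), Cd8a (-1.45) and Rag2 (-1.44). Over all genes 2.62% were lower and 1.33% higher by the 2-fold rule, which is the share to set beside each count in this paragraph. The 1 higher gene was Ptcra, the pre-TCR α chain, which belongs to the double-negative stage and is no double-positive marker. Some others of the list are genes of T cells in general. All 11 reached the median gene level. Their mean level, Ptcra included, was 12.09 in the wild type, 12.10 in the transgenic and 10.93 in the TCF-1-deficient sample. Of 11 B cell markers 4 were higher and 0 lower, and their mean level was 6.55, 6.79 and 7.60 in that order. The 4 were Cd79a (2.53), Ms4a1 (1.64), Bank1 (1.52) and Fcer2a (1.52). Of 17 myeloid and dendritic markers 3 were higher and 0 lower (6.75, 6.89 and 7.25). The 3 were Ly86 (4.01), Cybb (1.55) and Lyz2 (1.12). The part of these cells in the values of Jup, Ctnnd1, Afdn and Cdh1 was not tested. Thymic epithelium also expresses E-cadherin and desmoplakin. Its markers had mean levels of 6.39, 6.40 and 6.38 over 18 genes, 14 of which were under the median gene level on all arrays. Of the 18, 9 had equal values on the wild type and TCF-1-deficient arrays, and the quartiles of the difference were 0 and 0.07. Epcam and Aire were among the 9, at 6.20 and 6.78 on all 3 arrays. Cldn4 was the 1 past 2-fold, lower by a difference of -1.44 that the mean includes. Next in size were Prss16 (0.46), Krt8 (0.34), Cldn3 (0.29) and Krt15 (0.27), all higher without TCF-1 and short of 1.5-fold. The mean level alone therefore does not show that these markers were unchanged. Of 13 fibroblast and endothelial markers 1, Pdgfrb, was higher (4.47), and of 8 erythroid and platelet markers 1, Alas2, was higher, by 1.14 without TCF-1 and by 1.11 with the transgene. No other gene of these marker lists was past 2-fold with the transgene.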

How the data were processed

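RNA of thymocytes from 3 genotypes was measured on Affymetrix whole-transcript arrays, 1 per genotype. The deposited values, 1.73 to 14.8, were read as log2 values because the authors used RMA and Partek, per the submitters' processing notes. The log base is stated in no header. The build is not given in the sources used here. Their normalisation was kept.

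Gene names came from the annotation of the platform. Of 35556 probe sets, 21789 had 1 symbol, 1621 several (not used) and 12146 none here. They represent 19938 genes, and for 999 genes with several probe sets that of highest mean was used. Differences were called at 2-fold, a rule of size. The targeted gene itself was not analysed here.

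The members and all 16 gene lists were chosen with earlier results of these data known. Named are all 10 members, up to 5 genes per list by size of difference with any past 2-fold, and the 5 genes nearest in pattern to each called member, leaving out predicted genes, clone names, small RNAs and olfactory or vomeronasal receptors. Lef1, Epcam, Aire, Xist, Uty, Eif2s3y and Kdm5d fall outside this rule and were named after their values were seen, and chromosomal neighbours were named by position. The calling step was tested on simulated data. The alternatives tried were 1.5-fold and 3-fold rules, leaving out dim genes, centring on array medians over all probe sets, loess (span 0.3) and the mean over probe sets. The number of arrays limits the precision. Python 3.11.15, NumPy 2.4.6, pandas 2.3.3, statsmodels 0.14.6 and matplotlib 3.10.9 were used.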

Additional observations from a re-analysis of the deposited data

How the results depend on the processing

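No paired analysis was possible because each genotype has 1 array. The count of the 10 genes past 2-fold stayed within 1.5 times its value in 17 of 18 alternatives; the exception was the transgenic against the TCF-1-deficient array, where 3-fold gave 3 in place of 5. Over all genes, 1.5-fold and 3-fold gave 2182 and 282 in place of 789 for TCF-1-deficient against wild type, 230 and 18 in place of 49 for transgenic against wild type, and 2133 and 295 in place of 802 for transgenic against TCF-1-deficient, as thresholds by construction do. The filter on dim genes, centring, loess and the mean over probe sets kept these counts within 1.5 times. Of 90 alternative values of single genes, 87 kept their side of 2-fold and 0 reversed a call. The other 3, Ctnna1 in 2 comparisons and Cdh1 in 1, are given above with centring. The largest move was 0.13. Among the 18 and the 90 are those by the mean over probe sets. They could not differ from the main values, since each of the 10 genes had 1 probe set, and they show no stability. The main count for transgenic against wild type was 0, so the 3-fold rule and the filter on dim genes could return only 0 there. For TCF-1-deficient against wild type, the change from 4 to 6 at 1.5-fold lies on the limit of 1.5 times. Of 192 list medians under an alternative, 14 moved by 0.15 or more, all with dim genes left out, which leaves between 2 and 9 genes in those lists. Without replicates no alternative bears on the spread between mice.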

Other observations

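Neighbours along the chromosome were set beside the 10 genes, taking from the gene table the nearest measured protein-coding gene on each side, chosen by position and not by value. Of the 20 neighbours, 1 was past 2-fold without TCF-1, which is 5% and near the 3.96% of all genes, and 0 with the transgene, where 0.246% of all genes were. The count is thus no result about the neighbours. The 1 gene was P3h4, a member of the prolyl hydroxylase family that lies next to Jup. P3h4 was at 7.54 in the wild type, 8.07 in the transgenic and 6.46 in the TCF-1-deficient sample, differences of 0.53 and -1.08 against 0.47 and -3.94 for Jup. Its TCF-1-deficient value was under the median gene level. Hap1, on the other side of Jup, had the value 6.32 on all 3 arrays. The neighbours of Afdn, Tcte2 and Gm7168, were 0.72 and 0.18 higher without TCF-1, and those of Ctnnd1, Tfpi and Selenoh, 0.58 and 0.28 higher. Cdh3, the cadherin gene beside Cdh1, had the value 5.93 on all 3 arrays.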
